A study of Mus musculus with 12 samples.

Results

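The immediate early genes *Fos*, *Fosb*, *Jun*, *Junb*, *Egr1*, *Atf3*, *Ier2* and *Dusp1* and the inducible heat shock genes *Hspa1a* and *Hspa1b* were followed in endothelial cells that had been sorted from the bone marrow of healthy mice and of mice with cardiovascular disease. These 10 genes were matched by symbol to the Ensembl identifiers of the deposited count table, which lists 55421 genes, and each of the 10 had enough reads to be tested. The libraries came from 12 mice aged 20 weeks, 1 library for each mouse. Controls were 3 naive C57BL/6J mice. Hypertension was induced in 3 C57BL/6J mice by infusing angiotensin II for 8 weeks. Atherosclerosis was studied in 3 *Apoe*-/- mice, which carry the Apoe(tm1Unc) allele in every cell and were fed a western-type diet for 10 weeks. The remaining 3 C57BL/6J mice had a myocardial infarction (MI), and the labels date their cells to day 2 whereas the published results text dates them to day 4. Within each group the labels number the mice 2, 3 and 4. The same 3 controls served in every comparison with disease, and genotype and diet cannot be told apart in the atherosclerosis group.

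Immediate early genes are switched on quickly after a cell is stimulated, without new protein synthesis, through factors that already sit at their promoters, such as serum response factor, its ternary complex partners and CREB. Fos and Jun proteins pair to form the transcription factor AP-1. The Hsp70 genes *Hspa1a* and *Hspa1b* are switched on by heat shock factor 1 when proteins misfold. Both groups of genes are known to respond to the handling of tissue, including warm enzymatic digestion. Here every marrow was digested for 30 min at 37 °C with 1 mg per mL collagenase and 2 mg per mL dispase before cells were sorted, so that this step is common to all 12 libraries and its part in the levels was not tested.

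Sequences upstream of annotated starts are shown for *Hspa1a* and *Hspa1b*, the pair of members with the highest Pearson's r over the 12 libraries. Their r was 0.927, and 0.598 without atherosclerosis replicate 4. Also shown are *Fos* and *Dusp1*, 2 early genes that varied less within groups than the median gene. The sequences are the 250 bases before the start, 5′ to 3′ on the gene's strand, from RefSeq on GRCm38.p6. Of the 10 members, 8 matched an entry (all but *Egr1* and *Ier2*). *Hspa1a* (chr17:34972157-34972406, minus strand) and *Hspa1b* (chr17:34959239-34959488, minus strand) are shown with the unit GAANNTTC of the heat shock element in capitals, where N is any base.
Hspa1a: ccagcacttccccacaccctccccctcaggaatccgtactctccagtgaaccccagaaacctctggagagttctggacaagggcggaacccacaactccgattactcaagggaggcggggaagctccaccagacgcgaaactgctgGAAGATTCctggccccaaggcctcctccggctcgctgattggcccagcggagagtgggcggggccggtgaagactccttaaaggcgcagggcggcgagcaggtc
Hspa1b: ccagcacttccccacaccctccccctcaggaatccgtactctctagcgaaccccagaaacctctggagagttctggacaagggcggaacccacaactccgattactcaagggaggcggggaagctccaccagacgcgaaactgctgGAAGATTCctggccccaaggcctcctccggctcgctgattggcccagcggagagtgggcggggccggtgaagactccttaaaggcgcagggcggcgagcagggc
*Fos* (chr12:85473640-85473889, plus strand) and *Dusp1* (chr17:26508473-26508722, minus strand) are shown with TGACGT, the core of the cyclic AMP response element bound by CREB, in capitals on either strand.
Fos: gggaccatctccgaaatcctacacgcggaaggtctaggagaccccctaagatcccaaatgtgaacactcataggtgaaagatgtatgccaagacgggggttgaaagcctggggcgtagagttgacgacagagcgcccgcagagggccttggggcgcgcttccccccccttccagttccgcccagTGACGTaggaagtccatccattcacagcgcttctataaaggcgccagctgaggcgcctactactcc
Dusp1: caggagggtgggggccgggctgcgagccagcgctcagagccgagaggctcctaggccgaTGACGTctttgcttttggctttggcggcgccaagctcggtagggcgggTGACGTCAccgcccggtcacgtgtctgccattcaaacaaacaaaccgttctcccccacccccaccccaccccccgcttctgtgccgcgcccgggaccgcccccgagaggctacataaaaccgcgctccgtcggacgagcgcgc

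The *Hspa1a* and *Hspa1b* sequences matched at 247 of 250 bases, with the differences C44T, T47C and T249G (the base of *Hspa1a*, its position counted from 1 at the 5′ end of the printed stretch, and the base of *Hspa1b*). Both held GAANNTTC once, starting 104 bases before the start, and CCAAT once on the opposite strand, at 67 bases. Of the 32851 RefSeq promoter stretches of this length, 6.69% held GAANNTTC, 7.17% held TTCNNGAA, the other arrangement of the same unit, and 33.8% held CCAAT on either strand. TGACGT occurred in 6.47% of all stretches. It was found once in *Fos*, 66 bases before the start, once in *Atf3*, at 8 bases, and in *Dusp1* at 191 bases and, as 2 overlapping matches on opposite strands, at 143 and 141 bases. *Jun* held GAANNTTC at 128 bases. *Fos* also held TATAAA at 33 bases, a sequence present in 12.4% of all stretches. TGANTCA, the site of AP-1 itself, was in 6.75% of all stretches and in none of the 8 members' stretches, and the CArG box bound by serum response factor was in 1.47% and likewise in none of the 8. Such matches describe letters in a window and are not measured sites.

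Values are given as CPM, which scales each library to the same total after its size is adjusted by the TMM method, and log2 fold changes are disease minus controls. Library totals ranged from 17007088 to 25136936 counts, and 3 counts, the smallest amount taken as measured, amounted to between 0.119 and 0.176 CPM before TMM. *Apoe*, the targeted gene, reached 7.28 to 14.8 CPM in the *Apoe*-/- libraries and 450.5 CPM or more in each of the other libraries. The cells carry the label endothelial cells and were gated as TER-119- CD41- CD45- CD31hi SCA-1+ after lineage depletion, and their markers were compared with this label. All 24 endothelial markers were above 3 counts in every library, but together they reached only 203 to 366 CPM, with *Cdh5* (VE-cadherin) at 2.00 to 4.19 and *Pecam1* (CD31) at 17.2 to 31.8 CPM. Markers of neutrophils (13 genes) reached 34088 to 99231 CPM, of erythroid cells (14 genes) 11318 to 46611, of monocytes and macrophages (14 genes) 1777 to 2869, of megakaryocytes (8 genes) 358 to 1675, of the B lineage (11 genes) 219 to 1205, of T and NK cells (9 genes) 327 to 790.02 and of stromal cells (9 genes) 112 to 351 CPM. The levels below are therefore those of sorted material in which transcripts of blood cells were far more abundant than those of endothelium, and in bulk RNA a change in the number of cells of a type and a change in RNA per cell cannot be told apart.

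In edgeR's quasi-likelihood test, with p values adjusted by Benjamini and Hochberg's method over 15999 genes, 0 of the 10 members differed from controls at an adjusted p under 0.05 in hypertension, atherosclerosis or MI. Among all genes tested, the share called was 0% for hypertension, 0.144% for atherosclerosis and 0% for MI. Counted at an unadjusted p under 0.05, the members numbered 0 for hypertension, 2 for atherosclerosis (*Hspa1a* and *Hspa1b*) and 0 for MI, where the shares of all genes were 3.71%, 5.97% and 2.80%. edgeR's likelihood-ratio test and DESeq2 likewise called 0 members in each of these comparisons. DESeq2 gave p values for the 8 early genes only, because it set those of *Hspa1a* and *Hspa1b* aside as outlying counts. The log2 fold changes of the 8 early genes lay between -0.37 and 0.30 in hypertension, between -0.16 and 0.45 in atherosclerosis and between -0.48 and 0.09 after MI. Their smallest adjusted p in the 3 comparisons was 0.866. Standard errors of these 8 genes ran from 0.16 for *Ier2* to 0.33 for *Jun*. With 3 mice in a group, changes within the 95% intervals given below are not excluded, and the size of change that could be detected was not computed.

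**Figure D1:**
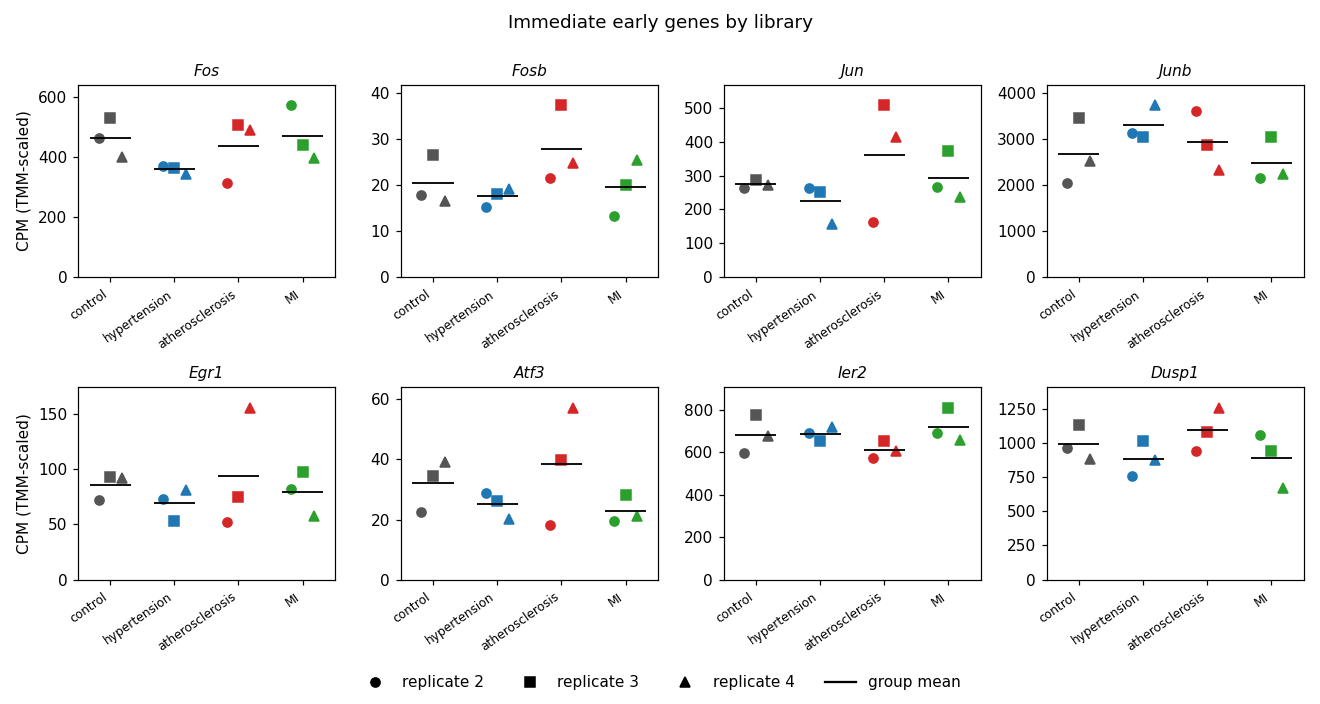
CPM of the 8 immediate early genes in each library (vertical axes from 0, TMM-scaled), by group, with symbols for replicates 2, 3 and 4 and a line at the group mean. The groups overlap for each gene except *Fos*, for which the hypertension libraries (344 to 369.9) lie below the controls (400.1 to 529) and the MI libraries, and in a few pairs of disease groups named in the text.

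*Fos*, on chromosome 12 from 85473890 to 85477273, encodes the founding Fos subunit of AP-1. In the order of replicates 2, 3 and 4 it held 462, 529 and 400.1 CPM in controls, 369.9, 364 and 344 in hypertension, 314, 505 and 489 in atherosclerosis and 571, 439 and 397 after MI. All hypertension libraries lay below all controls, and the lowest library of the series was an atherosclerosis one. The hypertension mean was 360 ± 13.4 CPM (SD, n = 3) against 464 ± 64.7 in controls (SD, n = 3). The log2 fold change was -0.37 ± 0.20 (SE), with a 95% interval from -0.84 to 0.10 and an adjusted p of 0.951 from edgeR's quasi-likelihood test. An exact two-sided permutation test of log2 CPM gave p = 0.1, the smallest that 3 libraries against 3 can give. *Fos* was the single member whose hypertension and control libraries did not overlap, 1 of 10, and 16.8% of all genes tested showed such a separation. The summed neutrophil markers separated the same libraries, at 37292 to 54440 CPM in hypertension and 59012 to 81585 in controls. With the neutrophil share as a covariate the log2 fold change of *Fos* was -0.10, with the share of monocyte and macrophage markers -0.20, with the erythroid share -0.35 and with the endothelial share -0.39.

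*Fos* in atherosclerosis averaged 436 ± 106 CPM (SD, n = 3) and after MI 469 ± 90.9 (SD, n = 3), and neither differed from controls beyond the spread between mice (log2 fold changes of -0.09 ± 0.20 and 0.02 ± 0.20, SE). Ordered by mean, hypertension was lowest, followed by atherosclerosis, controls and MI, and adjacent groups overlapped. Compared directly, the MI mean of *Fos* exceeded the hypertension mean by 0.38 ± 0.20 (SE) on the log2 scale, and although the libraries of these groups did not overlap, the adjusted p was 0.615 with edgeR's quasi-likelihood test.

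*Fosb*, on chromosome 7 from 19302696 to 19310051, encodes a Fos family subunit best known from lasting responses of neurons. It was far less abundant, with 17.9, 26.6 and 16.5 CPM in controls, 15.3, 18.1 and 19.1 in hypertension, 21.5, 37.2 and 24.8 in atherosclerosis and 13.2, 20.003 and 25.3 after MI. The highest library was atherosclerosis replicate 3, and 1 control lay above the other two atherosclerosis libraries. The atherosclerosis mean of 27.8 ± 8.30 CPM (SD, n = 3) exceeded the control mean of 20.3 ± 5.47 (SD, n = 3) by 0.45 ± 0.27 (SE) on the log2 scale, with a 95% interval from -0.16 to 1.07 and an adjusted p of 0.866 from edgeR's quasi-likelihood test. In hypertension the log2 fold change was -0.21 ± 0.27 (SE) and after MI -0.06 ± 0.27 (SE). Atherosclerosis and hypertension did not overlap, with a log2 difference of 0.67 ± 0.27 (SE), an unadjusted p of 0.0262 and an adjusted p of 0.786 from edgeR's quasi-likelihood test. *Fosb* lies on chromosome 7, as does the targeted gene *Apoe*. Any part of the sequence flanking the targeted allele in the level of *Fosb* was not tested.

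*Jun*, a gene with a single exon on chromosome 4 from 95049034 to 95052222, encodes the main Jun subunit of AP-1. Controls were close together at 263, 286 and 273 CPM, hypertension held 263, 252 and 158, atherosclerosis 162, 508 and 413, and MI 265, 373 and 237. The atherosclerosis group contained both the highest library and the next to lowest library of the series, and each disease group overlapped with controls. The log2 fold change was 0.40 ± 0.33 (SE) in atherosclerosis, with a 95% interval from -0.37 to 1.17, and it was 0.07 without atherosclerosis replicate 3 and 0.76 without replicate 2. It was -0.29 ± 0.33 (SE) in hypertension and 0.09 ± 0.33 (SE) after MI. *Jun* overlaps the antisense gene *Junos*, which held 48 to 164 counts against 3164 to 8643 on *Jun*, and 5.83% of the 50-base stretches of *Jun* transcripts also occur in *Junos* on the opposite strand. The kit keeps strand, but which strand setting was used in counting is not given in the sources used here.

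*Junb*, on chromosome 8 from 84974484 to 84978718, encodes a Jun subunit that is abundant in blood cells, and it was the most abundant member, ranking 31 of 15992 genes in CPM per kb of exon. Libraries held 2044, 3452 and 2507 CPM in controls, 3119, 3038 and 3721 in hypertension, 3590.3, 2865 and 2314 in atherosclerosis and 2139.9, 3037 and 2235 after MI. The 3 hypertension libraries were within the 5 highest, but control replicate 3 exceeded 2 of them. The mean of 3293 ± 373 CPM in hypertension (SD, n = 3) and of 2668 ± 718 in controls (SD, n = 3) gave a log2 fold change of 0.30 ± 0.24 (SE), with a 95% interval from -0.26 to 0.86. The log2 fold change was 0.13 ± 0.24 (SE) in atherosclerosis and -0.11 ± 0.24 (SE) after MI. All MI libraries lay below all hypertension libraries, with a log2 difference (MI minus hypertension) of -0.41 ± 0.24 (SE) and an adjusted p of 0.637 from edgeR's quasi-likelihood test. The nearest libraries of these groups were at 3037 CPM (MI replicate 3) and 3038 CPM (hypertension replicate 3). *Junb* shares 5.76% of its 50-base stretches with the other strand of *Prdx2*, which held 13762 to 26752 counts.

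*Egr1* encodes a zinc finger factor induced by growth factors and shear stress. It held 71.9, 93.1 and 92.0 CPM in controls, 72.5, 53.4 and 80.6 in hypertension, 52.2, 74.7 and 155 in atherosclerosis and 81.7, 97.5 and 57.8 after MI. Atherosclerosis replicate 4 was the highest of the 12 libraries, 1.59 times the next, and atherosclerosis replicate 2 was the lowest. The log2 fold change in atherosclerosis was 0.13 ± 0.33 (SE), and without replicate 4 it was -0.43 ± 0.25 (SE). Hypertension and MI differed from controls by -0.32 ± 0.33 and -0.12 ± 0.33 (SE).

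*Atf3*, on chromosome 1 from 191170296 to 191218039, encodes a stress-induced bZIP factor of the ATF and CREB family that pairs with Jun proteins. Its libraries were at 22.5, 34.4 and 39.1 CPM in controls, 28.8, 26.2 and 20.1 in hypertension, 18.3, 39.9 and 57.0 in atherosclerosis and 19.5, 28.2 and 21.03 after MI. As for *Egr1*, the extremes of the series were atherosclerosis replicates 2 and 4. The largest mean change from controls among the early genes after MI was that of *Atf3*, with a log2 fold change of -0.48 ± 0.33 (SE) and a 95% interval from -1.25 to 0.28, and the MI and control libraries overlapped. In atherosclerosis it was 0.26 ± 0.33 (SE), and -0.14 ± 0.32 (SE) without replicate 4. In hypertension it was -0.36 ± 0.33 (SE).

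*Ier2*, a single-exon gene on chromosome 8 from 84661331 to 84662852, encodes a small nuclear protein induced with the AP-1 genes. It varied least, with 595, 778 and 677 CPM in controls, 690.1, 652 and 721 in hypertension, 572, 654 and 605 in atherosclerosis and 693, 809.6 and 659.7 after MI. The mean of the 12 was 676 CPM, and the highest library was 1.41 times the lowest. Log2 fold changes were 0.01 ± 0.16 in hypertension, -0.16 ± 0.16 in atherosclerosis and 0.08 ± 0.16 after MI (SE). The 95% intervals, -0.35 to 0.37 for hypertension, -0.52 to 0.20 for atherosclerosis and -0.28 to 0.44 for MI, were the narrowest of the 10 members. Directly compared, MI lay above atherosclerosis without overlap, by 0.24 ± 0.16 (SE) on the log2 scale, with an adjusted p of 0.523 from edgeR's quasi-likelihood test.

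*Dusp1*, on chromosome 17 from 26505590 to 26562128, encodes a phosphatase that switches off the MAP kinases p38 and JNK. This span is that of GENCODE, and the RefSeq start used for the printed bases lies inside it. The span overlaps other annotated genes, among them *Ergic1* on the opposite strand, with 571 to 1320 counts. Of the 50-base stretches of *Dusp1* transcripts, 0% occur in transcripts of other genes. Controls held 961, 1134 and 879.6 CPM, hypertension 756, 1012 and 877, atherosclerosis 943, 1082 and 1255 and MI 1059, 938 and 671. The highest library was again atherosclerosis replicate 4 and the lowest MI replicate 4, with every group overlapping every other. The log2 fold change was -0.17 ± 0.20 in hypertension, 0.14 ± 0.20 in atherosclerosis and -0.16 ± 0.20 after MI (SE). Without atherosclerosis replicate 4 the atherosclerosis value was 0.03 ± 0.22 (SE).

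**Figure D2:**
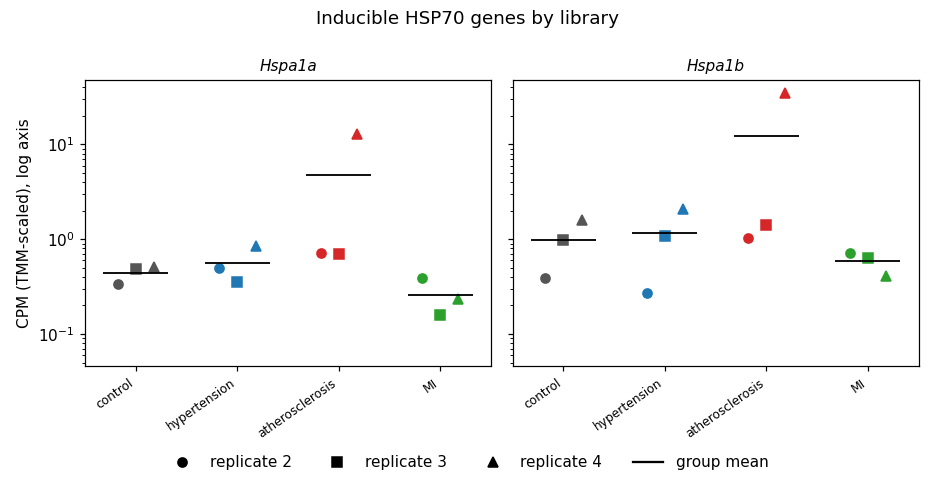
CPM of *Hspa1a* and *Hspa1b* in each library on a log axis, by group, with symbols for replicates 2, 3 and 4 and a line at the group mean. Atherosclerosis replicate 4 stands at 13.04 CPM for *Hspa1a* and 34.6 for *Hspa1b*, while the other 11 libraries reach at most 0.851 and 2.10.

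The inducible Hsp70 genes had 42 counts or fewer in 11 of the 12 libraries and 256 (*Hspa1a*) and 679 (*Hspa1b*) in the remaining library. *Hspa1a* (chromosome 17 from 34969190 to 34972156) and *Hspa1b* (chromosome 17 from 34956436 to 34959238) are single-exon genes on the same strand, 9951 bases apart, whose product is the stress-induced form of the chaperone Hsp70. In order of replicates 2, 3 and 4, *Hspa1a* had 6, 9 and 13 counts in controls, 11, 8 and 17 in hypertension, 16, 12 and 256 in atherosclerosis and 7, 3 and 4 after MI. *Hspa1b* had 7, 18 and 41 counts in controls, 6, 25 and 42 in hypertension, 23, 24 and 679 in atherosclerosis and 13, 12 and 7 after MI. Atherosclerosis replicate 4 was thus far above all other libraries for both genes. Summed over the pair, it held 935 counts against 11 to 59 elsewhere, which in CPM is 47.6 against a median of 1.45, or 33.0 times the median of the other 11 libraries and 16.1 times the next highest.

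*Hspa1a* in atherosclerosis averaged 4.82 ± 7.12 CPM (SD, n = 3) and in controls 0.443 ± 0.0925 (SD, n = 3). Its libraries were 0.712, 0.705 and 13.04 CPM in atherosclerosis and 0.336, 0.487 and 0.504 in controls. In CPM the groups thus did not overlap (p = 0.1, the smallest possible, by the exact permutation test). In raw counts, atherosclerosis replicate 3 (12) lay below control replicate 4 (13). The log2 fold change was 3.41 ± 0.97 (SE), with an unadjusted p of 0.00362 and an adjusted p of 0.41 from edgeR's quasi-likelihood test. *Hspa1a* was the 1 member of 10 whose atherosclerosis and control libraries did not overlap, against 9.51% of all genes tested. For *Hspa1b* the log2 fold change was 3.60 ± 1.13 (SE), with an unadjusted p of 0.00723 and an adjusted p of 0.561 from the same edgeR test, and the groups overlapped (exact permutation test, p = 0.4). Without atherosclerosis replicate 4 the log2 fold changes were 0.66 ± 0.50 for *Hspa1a* and 0.26 ± 0.68 for *Hspa1b* (SE), with adjusted p values of 0.68 and 0.928 from edgeR's quasi-likelihood test. The size of the atherosclerosis difference therefore rests on 1 mouse.

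Hypertension and MI showed no such library. For *Hspa1a* the log2 fold change was 0.33 ± 1.04 (SE) in hypertension and -0.77 ± 1.16 (SE) after MI, and for *Hspa1b* 0.18 ± 1.15 (SE) and -0.77 ± 1.24 (SE). The fit shares 1 estimate of spread over the 4 groups, and for the summed pair the standard error in hypertension was 1.04 with all 12 libraries and 0.48 without atherosclerosis replicate 4. After MI, 0 of the 10 members were free of overlap with controls, a state found in 8.86% of all genes.

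The counts of the pair are themselves uncertain. Of the 50-base stretches in *Hspa1a* transcripts, 58.8% occur in *Hspa1b* transcripts, and of those in *Hspa1b* 62.3% occur in *Hspa1a*. Reads were 50 bases long and STAR counted only reads with a single place in the genome, so that reads from the shared stretches should be missing from both counts. *Hspa1b* counts were 0.545 to 4.00 times those of *Hspa1a* in the 12 libraries, with a median of 2.00, and 2.65 times in atherosclerosis replicate 4. When both genes were summed, the log2 fold change in atherosclerosis was 3.56 ± 1.05 (SE) with an adjusted p of 0.466 from edgeR's quasi-likelihood test, and without replicate 4 it was 0.40 ± 0.53 (SE).

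**Figure D3:**
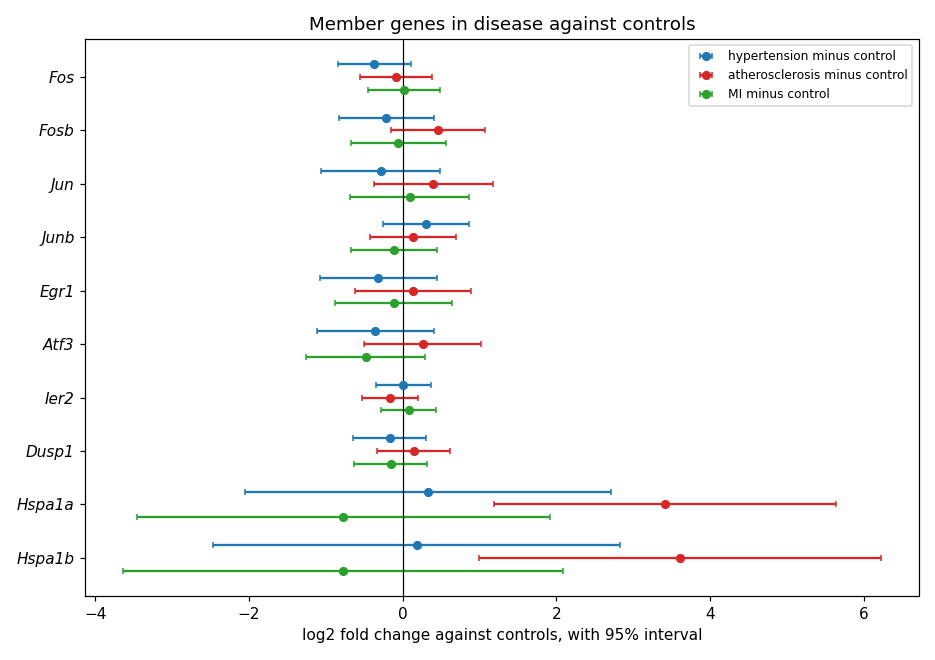
Log2 fold change of each member against controls in hypertension, atherosclerosis and MI (points), with 95% intervals from the standard error and 8 residual degrees of freedom (bars). The intervals of the 8 early genes include 0 in each comparison, while those of *Hspa1a* and *Hspa1b* in atherosclerosis lie above 0, with unadjusted p values of 0.00362 and 0.00723 and adjusted p values of 0.41 and 0.561 from edgeR.

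The 3 disease groups were then set against each other. The number of members called by edgeR's quasi-likelihood test was 0 in each, where the share of all genes called was 0.0625% between atherosclerosis and hypertension, 0% between MI and hypertension and 0.269% between MI and atherosclerosis. At an unadjusted p under 0.05 the counts were 3, 0 and 3 of the 10, where the shares of all genes were 5.94%, 8.41% and 12.7%. Libraries did not overlap for 1, 2 and 3 of the 10, and the shares of all genes for these pairs are not given here. Against controls, 8.86% to 16.8% of all genes were free of overlap. *Hspa1a* and *Hspa1b* gave log2 differences (MI minus atherosclerosis) of -4.19 ± 1.05 and -4.38 ± 1.21 (SE). Without atherosclerosis replicate 4 the differences were -1.43 for *Hspa1a* and -1.03 for *Hspa1b*. With all libraries, their adjusted p values were 0.126 and 0.168 from the quasi-likelihood test and 0.00521 and 0.0150 from edgeR's likelihood-ratio test, and DESeq2 gave no p value for this pair. *Atf3* was the other gene with an unadjusted p under 0.05 here, with a log2 difference of -0.75 ± 0.33 (SE) and an adjusted p of 0.376 from edgeR's quasi-likelihood test. A test for any difference among the 4 groups called 0 members, against 0.144% of all genes, and 2 members, against 7.48% of all genes, were under an unadjusted p of 0.05 (*Hspa1a*, adjusted p = 0.211, and *Hspa1b*, adjusted p = 0.28, edgeR).

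Members differed widely in level. In CPM per kb of exon, averaged over the 12 libraries, *Junb* reached 1234, *Ier2* 444, *Dusp1* 291, *Fos* 184, *Jun* 90.2, *Egr1* 18.3, *Atf3* 13.7, *Fosb* 3.41, *Hspa1b* 1.34 and *Hspa1a* 0.513. *Junb*, *Ier2* and *Dusp1* were thus among the 143 most abundant of 15992 genes on this scale, while *Hspa1a* ranked 13101. For *Hspa1a* and *Hspa1b*, 66.3% and 62.3% of the 50-base stretches also occur in transcripts of other genes. Reads from these stretches should be missing from the counts, so both levels should be too low on this scale. The 8 early genes together made up 0.435% to 0.643% of the counts, with control replicate 2 lowest and control replicate 3 highest.

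Members also differed in how much they varied between mice of a group. The SD of log2 CPM within groups, pooled over the 4 groups, was 0.14 for *Ier2*, 0.24 for *Dusp1*, 0.26 for *Fos*, 0.29 for *Junb*, 0.37 for *Fosb*, 0.48 for *Egr1*, 0.50 for *Atf3* and 0.51 for *Jun*, against a median of 0.31 over all genes tested. Compared with the 500 genes nearest in mean level, *Ier2* stood at percentile 10.2 and *Dusp1* at 46.8, whereas *Jun*, *Egr1* and *Atf3* stood at 92.6, 94.2 and 95.2. *Hspa1a* and *Hspa1b* had SDs of 1.22 and 1.59 and stood at 98.6 and 98.8. Among the early genes, atherosclerosis replicate 2 was the lowest library for 4 of the 8 (*Fos*, *Egr1*, *Atf3* and *Ier2*) and replicate 4 the highest for 3 (*Egr1*, *Atf3* and *Dusp1*). Of all genes tested, replicate 2 was the highest library for 20.0% and replicate 4 for 14.4%. The shares of all genes for which a library was lowest are not given here. Hypertension libraries were lowest for 1 of the 8 (*Jun*) and highest for 1 (*Junb*).

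The early genes varied together only in part. Over the 12 libraries, which also differ in depth and cell mixture, Pearson's r of log2 CPM was above 0 in 21 of the 28 pairs of early genes, with a median of 0.261 and a range from -0.516 to 0.765. *Jun* and *Atf3* were most alike, with r = 0.765 and a Spearman's rho of 0.811, and r was 0.742 without the 2 libraries farthest from the median of *Jun*. *Egr1* and *Atf3* followed with r = 0.726 (rho = 0.573), which was 0.356 without the 2 libraries farthest from the median of *Egr1*. *Fos* and *Jun* had r = 0.685 (rho = 0.755 and, without the 2 farthest, r = 0.738). *Junb* had r = -0.516 against *Fos*, -0.351 against *Jun* and 0.18 against *Fosb*. Without the 2 libraries farthest from the median of the other gene, these values were -0.25, -0.288 and -0.032. *Hspa1a* and *Hspa1b* had r = 0.927 (rho = 0.734), which was 0.598 without atherosclerosis replicate 4. Without this library, r was higher for *Egr1* and *Ier2* (0.754), *Jun* and *Atf3* (0.732) and *Fos* and *Jun* (0.663). The r of the summed Hsp70 pair against *Egr1*, 0.68 over all libraries, was 0.108 without this library. These values are descriptions over libraries and carry no test.

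Genes outside the members were ranked by their likeness to the mean standardized log2 CPM of the 8 early genes. The ranking covered 13417 genes with a mean of at least 1 CPM over the 12 libraries. The 8 most alike were 3 immunoglobulin genes (*Ighg2b*, r = 0.872, *Ighv3-6*, 0.782, and a kappa variable gene, 0.86), the DNA repair nuclease gene *Dclre1b* (0.835), *Trib1*, which encodes a pseudokinase (0.828), *Irf8*, a transcription factor of myeloid and B cells (0.808), *Gm16712* (0.779) and the histone acetyltransferase gene *Kat2a* (0.771), each over 12 libraries. Without the 2 libraries farthest from the median of the mean (control replicate 3 and atherosclerosis replicate 4) these values lay between 0.633 and 0.908. *Trib1* alone among them belongs to the immediate early list below. The kappa variable gene held 19.7 CPM in atherosclerosis replicate 4 and at most 2.64 CPM elsewhere. Its lowest value was 0.044 CPM, under the smallest amount taken as measured, and its r was 0.871 without atherosclerosis replicate 4. For the summed Hsp70 pair the 5 most alike were *Cherp* (r = 0.953), *Dvl1* (0.944), *Akt2* (0.933), *Col1a1* (0.931) and *Atp8b2* (0.923). Each was highest in atherosclerosis replicate 4, and without this library their r lay between 0.535 and 0.854. *Col1a1*, a collagen gene of stromal cells and bone, held 34.2 CPM in atherosclerosis replicate 4 and at most 4.36 elsewhere.

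Other immediate early genes were taken from a list of 48, of which 46 were tested. The count called by edgeR's quasi-likelihood test was 0 in every comparison with controls, and at an unadjusted p under 0.05 it was 1 for hypertension, 4 for atherosclerosis and 5 for MI. Of all genes tested, 3.71%, 5.97% and 2.80% were under this p. In hypertension 15 were higher and 31 lower, with a median log2 fold change of -0.12, where the median of all genes tested was -0.01. Atherosclerosis had 31 higher and 15 lower (median 0.11, all genes 0.01), and without atherosclerosis replicate 4 it had 18 higher (median -0.04). MI had 18 higher and 28 lower (median -0.05, all genes 0.00022). The smallest p belonged to *Tnfaip3*, which encodes A20, an inhibitor of NF-κB signaling. It held 23.3, 26.7 and 31.1 CPM in controls and 36.9, 50.9 and 62.9 in atherosclerosis, without overlap, for a log2 fold change of 0.89 ± 0.21 (SE) and an adjusted p of 0.205 from edgeR's quasi-likelihood test. *Dusp5*, a nuclear ERK phosphatase gene, reached 10.8, 14.3 and 16.5 CPM in atherosclerosis against 9.19, 9.31 and 7.80 in controls (log2 fold change 0.66 ± 0.22, SE). *Dusp2* and the antiproliferative gene *Btg2* had their smallest p after MI, with log2 fold changes of -0.45 ± 0.16 and -0.44 ± 0.17 (SE) and adjusted p values of 1.0 from edgeR.

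The other chaperones and heat shock genes, 25 tested of 28 listed, showed which of them accompanied *Hspa1a* and *Hspa1b* in atherosclerosis replicate 4. The count called was 0 in each comparison with controls (edgeR's quasi-likelihood test), and at an unadjusted p under 0.05 it was 1 for hypertension, 2 for atherosclerosis and 0 for MI. The shares of all genes under this p were 3.71%, 5.97% and 2.80%. In atherosclerosis 19 were higher and the median log2 fold change was 0.16, and without replicate 4 the number was 8 and the median -0.15. In hypertension 13 were higher (median 0.05) and after MI 10 (median -0.05). *Bag3*, a cochaperone of Hsp70, held 17.6, 12.7 and 34.4 CPM in atherosclerosis and 10.4, 13.8 and 12.5 in controls, for a log2 fold change of 0.82 ± 0.30 (SE) and an adjusted p of 0.719 from edgeR's quasi-likelihood test. *Dnajb1*, the Hsp40 partner of Hsp70, was at 271, 344 and 438 CPM in hypertension and 186, 257 and 240.3 in controls, without overlap, with a log2 fold change of 0.62 ± 0.25 (SE) and an adjusted p of 0.951 from edgeR. *Dnajb4* and *Hsp90ab1*, which encode a further Hsp40 and a constitutive Hsp90, had log2 fold changes of 0.40 ± 0.18 and 0.59 ± 0.29 (SE) in atherosclerosis. For *Hsp90ab1* the high library was replicate 2 (2588 CPM) and not replicate 4 (1391).

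**Figure D4:**
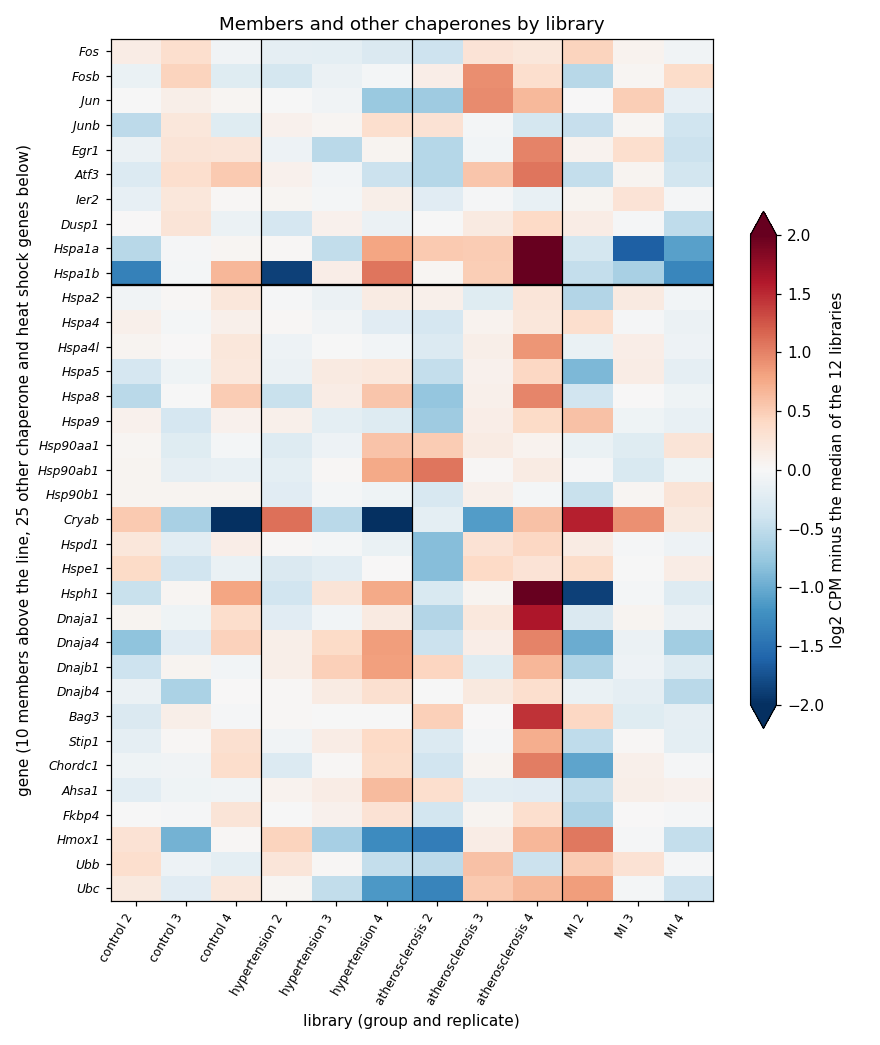
Log2 CPM of the 10 members (above the line) and 25 other chaperone and heat shock genes (below the line) in each of the 12 libraries, as the difference from the gene's median over the 12, with colors capped at 2 in either direction. Atherosclerosis replicate 4 is the darkest column for *Hspa1a*, *Hspa1b*, *Hsph1*, *Dnaja1* and *Bag3*, and atherosclerosis replicate 2 is low for *Fos*, *Jun*, *Egr1* and *Atf3*.

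Atherosclerosis replicate 4 was the highest of the 12 libraries for 14.4% of all genes tested, for 5 of the 10 members, for 13 of the 25 other chaperone genes (52.0%) and for 22 of the 46 other immediate early genes (47.8%), but for 4 of 21 upstream regulators (19.0%) and 3 of 12 partner genes (25%). Among chaperones, *Hsph1* (Hsp110, the exchange factor of Hsp70) stood at 319 CPM against 20.3 to 128 elsewhere, 4.44 times the median of the other libraries. *Dnaja1*, an Hsp40, stood at 304 CPM against 66.05 to 127, or 3.18 times. *Bag3* was 2.72 times, *Dnaja4* 2.16 times, *Chordc1* 2.06 times and *Hspa8*, the constitutive Hsp70, 1.99 times that median. *Hspa1b* and *Hspa1a* ranked 4 and 6 of 15999 genes by the same ratio, and 3.24% of all genes reached at least 2 times the median of the other libraries. Of the other chaperones, *Hspa5* was at 1.41 times, *Hspd1* at 1.35 times, *Hspa4* at 1.19 times, *Hsp90aa1* at 1.08 times, *Hsp90b1* at 0.944 times and *Ahsa1* at 0.818 times. The ubiquitin gene *Ubb*, also a heat shock target, was at 0.726 times.

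Among the other immediate early genes, *Socs3*, which encodes a feedback inhibitor of cytokine signaling, stood in atherosclerosis replicate 4 at 65.0 CPM, 3.13 times the median of the other libraries. *Ier3* was at 2.73 times (48.3 CPM), though MI replicate 2 was higher (59.2), and *Rgs1* at 2.67 times (44.5 CPM), with atherosclerosis replicate 3 close to it (43.6). *Tnfaip3* was at 2.35 times, *Klf2*, a flow-responsive factor of endothelium, at 2.34 and the nuclear receptor gene *Nr4a1* at 2.07. *Gadd45g* (0.537 times), *Maff* (0.571 times) and *Rgs2* (0.782 times) were lower in this library than in each of the others. The same library had the highest endothelial marker sum of the 12, at 366 CPM against 203 to 347 elsewhere, with *Pecam1* at 31.8 CPM, also the highest. It ranked 2 in the sums for monocytes and macrophages (2578 CPM) and megakaryocytes (1068), 3 in that of stromal cells (303) and 10 in that of neutrophils (47771). With a marker share as a covariate, the log2 fold changes of *Hspa1a* and *Hspa1b* in atherosclerosis were 2.37 and 2.36 for the endothelial share, 3.03 and 2.83 for the neutrophil share, 3.24 and 3.41 for the erythroid share and 2.90 and 3.25 for the share of monocytes and macrophages.

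Genes upstream of the members and partners of their proteins were counted in the same way. Of the 21 upstream regulators tested, the ternary complex factors, CREB family members, serum response factor, MAP kinases and heat shock factors among them, 0 were called in any comparison with controls (edgeR's quasi-likelihood test), and 0 had an unadjusted p under 0.05. Their median log2 fold change was -0.05 in hypertension, 0.0021 in atherosclerosis and -0.06 after MI. The smallest p values belonged to *Elk3* (-0.27 ± 0.14, SE) in hypertension and *Crem* (0.39 ± 0.21, SE) in atherosclerosis, followed by *Elk4* (0.29 ± 0.18, SE) and *Mapk9* (0.30 ± 0.20, SE) in hypertension. Of the 12 dimer partners and relatives, 0 were called, and 2 had an unadjusted p under 0.05, both in atherosclerosis, where the share of all genes was 5.97%. *Maf*, which encodes a bZIP factor, held 27.4, 19.9 and 15.2 CPM in atherosclerosis against 13.6, 12.9 and 14.2 in controls (log2 fold change 0.62 ± 0.22, SE). *Cebpa* and *Batf2* had log2 fold changes of 0.54 ± 0.29 and 0.86 ± 0.46 (SE) in atherosclerosis.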

How the data were processed

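The authors sequenced polyadenylated RNA with a strand-specific kit as single-end 50-base reads, aligned them with STAR 2.7.3a to GRCm38.p6 and counted reads per Ensembl gene (release 98). The deposited table holds these raw counts, which were used in all 12 columns. Of the 55421 gene identifiers, 55154 had a symbol. The members, gene lists and tests were chosen with earlier results of these data known. Genes named from a list are its 4 with the smallest p in any comparison with controls, of which 1 is not reported here, and further genes named for atherosclerosis replicate 4 were chosen after their values were seen.

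Counts were analysed in R 4.3.3 with edgeR 4.0.16. Genes were filtered with filterByExpr (15999 kept), scaled by TMM (factors 0.934 to 1.06) and fitted with 1 coefficient per group over 12 libraries (glmQLFit, 8 residual degrees of freedom, common dispersion 0.0634). Contrasts were tested two-sided with glmQLFTest and Benjamini-Hochberg adjustment over all genes tested, with a threshold of 0.05. Standard errors are the fold change over the root of F. The 95% intervals use 8 degrees of freedom and need not match the p values of the test. For *Atf3* between MI and atherosclerosis the interval was -1.52 to 0.025, with an unadjusted p of 0.0438 from glmQLFTest. Exact permutation tests used log2 CPM (SciPy). The steps were tested on simulated counts. Exonic lengths, overlaps and shared 50-base stretches came from GENCODE M21 and promoters from RefSeq. Of 212 listed symbols, 211 matched. Alternatives were edgeR's likelihood-ratio test, DESeq2 1.42.0, other scaling and filters, 2 groups only, a replicate block, immunoglobulin and hemoglobin genes left out, marker shares as covariates, and each library left out. Depth was 17007088 to 25136936 counts per library. Intervals and the floor of 3 counts cover counting error and the spread between these mice, and the study gives 1 mouse per library.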

Additional observations from a re-analysis of the deposited data

How the results depend on the processing

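Of the 30 log2 fold changes of members against controls, 14 kept their sign in all alternatives run. The number of members called against controls moved only without a low-count filter, to 2 in atherosclerosis (*Hspa1a* and *Hspa1b*), and that between atherosclerosis and hypertension to 2. Between MI and atherosclerosis it was 3 without a filter, 2 with the likelihood-ratio test and 0 to 1 when each library was left out. Calls among all genes also rose in these settings. Of 36003 genes without a filter, 432 were called in atherosclerosis against controls, 235 against hypertension and 790 between MI and atherosclerosis. The main fit called 23, 10 and 43 of 15999 genes. Between MI and atherosclerosis the likelihood-ratio test called 274 of 15999, and the fit without atherosclerosis replicate 2 called 93 of 16352. Requiring at least 10 counts in every library removed *Hspa1a* and *Hspa1b* from testing. The cause of these moves was not tested.

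With the neutrophil share as a covariate, signs turned in hypertension for *Jun* (0.19), *Hspa1a* (-0.13) and *Hspa1b* (-0.85), in atherosclerosis for *Fos* (0.12) and *Junb* (-0.024) and after MI for *Fos* (-0.12) and *Jun* (-0.16). With the endothelial share they turned for *Ier2* in hypertension (-0.0099) and *Egr1* in atherosclerosis (-0.069). *Fos* after MI was -0.046 with library totals only, -0.0013 without a filter, -0.009 with the erythroid share and -0.085 with the monocyte and macrophage share. When each library was left out, ranges that crossed 0 in hypertension were -0.34 to 0.024 for *Fosb*, -0.082 to 0.11 for *Ier2*, -0.069 to 0.58 for *Hspa1a* and -0.55 to 0.75 for *Hspa1b*. In atherosclerosis they were -0.21 to 0.11 for *Fos*, -0.030 to 0.36 for *Junb*, -0.43 to 0.44 for *Egr1* and -0.14 to 0.61 for *Atf3*. After MI they were -0.15 to 0.12 for *Fos*, -0.29 to 0.18 for *Fosb*, -0.13 to 0.22 for *Jun*, -0.29 to 0.11 for *Junb*, -0.30 to 0.063 for *Egr1*, -0.016 to 0.18 for *Ier2* and -0.30 to 0.0092 for *Dusp1*. *Hspa1a* between MI and atherosclerosis ranged from -4.72 to -1.43.

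The replicate block called 0 members in each comparison and gave 2.66 for *Hspa1a* and 2.75 for *Hspa1b* in atherosclerosis. Same-numbered libraries of different groups deviated together with r from -0.282 to 0.296, above 0.1 in 5 of 18 pairs, against 12 of 36 pairs of other numbers, so the numbers were not taken as pairing the mice. Of all genes, the block called 7 in atherosclerosis against 23 without it, the likelihood-ratio test 81, DESeq2 79 and the fit without a filter 432. The sum of *Hspa1a* and *Hspa1b* without atherosclerosis replicate 4, and the lists without it, were added after seeing the data. With 3 mice in a group, changes of any size within the intervals given are not excluded.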
